A study of Drosophila melanogaster with 4 samples.

Results

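The 7 genes described here encode the main proteins of the muscle contractile apparatus in Drosophila melanogaster: the myosin heavy chain (Mhc, CG17927), the muscle actins Act87E (CG18290) and Act88F (CG5178), the tropomyosins Tm1 (CG4898) and Tm2 (CG4843), and the myosin light chains Mlc1 (CG5596) and Mlc2 (CG2184). They were chosen by name, and every H3K4me1-enriched region that overlapped the span of a gene or the 5 kb on either side of it (the gene window) was assigned to that gene. These windows held 14 of the 7601 regions of replicate 1, 13 of the 7401 regions of replicate 2 and 19 of the 8219 regions of the combined list. The 7 genes were set beside all 7698 genes of chromosome arms 2L and 3R that could be placed on the genome release of the lists, FlyBase release 5.

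The data are a chromatin immunoprecipitation experiment with sequencing (ChIP-seq) on whole wild-type Oregon-R embryos of 14 to 16 h, with the antibody ab8895 against mono-methylated lysine 4 of histone H3 (H3K4me1). The 2 ChIP libraries and their 2 inputs shared strain, genotype and stage, so the design holds no contrast between conditions. The labels do not say whether the replicates came from separate embryo collections, and the spread between them may be technical. The sources used here do not state the read depth. In whole embryos, a mark in few cells and a weak mark in many cells cannot be told apart.

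Muscle shortens when myosin heads, each built of a heavy chain with an essential and a regulatory light chain, pull on actin filaments that tropomyosin winds along and gates. In the fly embryo the body-wall muscles have formed by this stage and are assembling their myofibrils, a programme driven by the factor Mef2 together with other mesodermal regulators. H3K4me1 is known from enhancers, which often lie in introns or beside genes, and from the chromatin that flanks active promoters, while the start site of an active gene is more often trimethylated.

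All 7 genes had at least 1 region in their window in both replicate lists, as did 73.1% of all genes on both arms. In the combined list all 7 had one as well, against 78.9% of all genes. The position of the regions differed between the genes. In 4 of the 7, Mhc, Act87E, Act88F and Mlc1, no base of the gene itself lay in a region of either replicate, and the regions stood beside the gene or over its neighbours. Tm1, Tm2 and Mlc2 carried regions inside the gene. A gene span without any region base was found in both replicates for 40.2% of all genes, 36.1% of protein-coding genes and 45.2% of the genes under 5 kb, the size of all of the 4 but Mhc. In the combined list 3 of the 7 spans were empty, against 38.3% of all genes, because a region reached Act87E by 12 bp. A span without a region base in a window that did hold a region was found for 14.4%. Among the 7 the count was 4 by either definition.

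**Figure D1:**
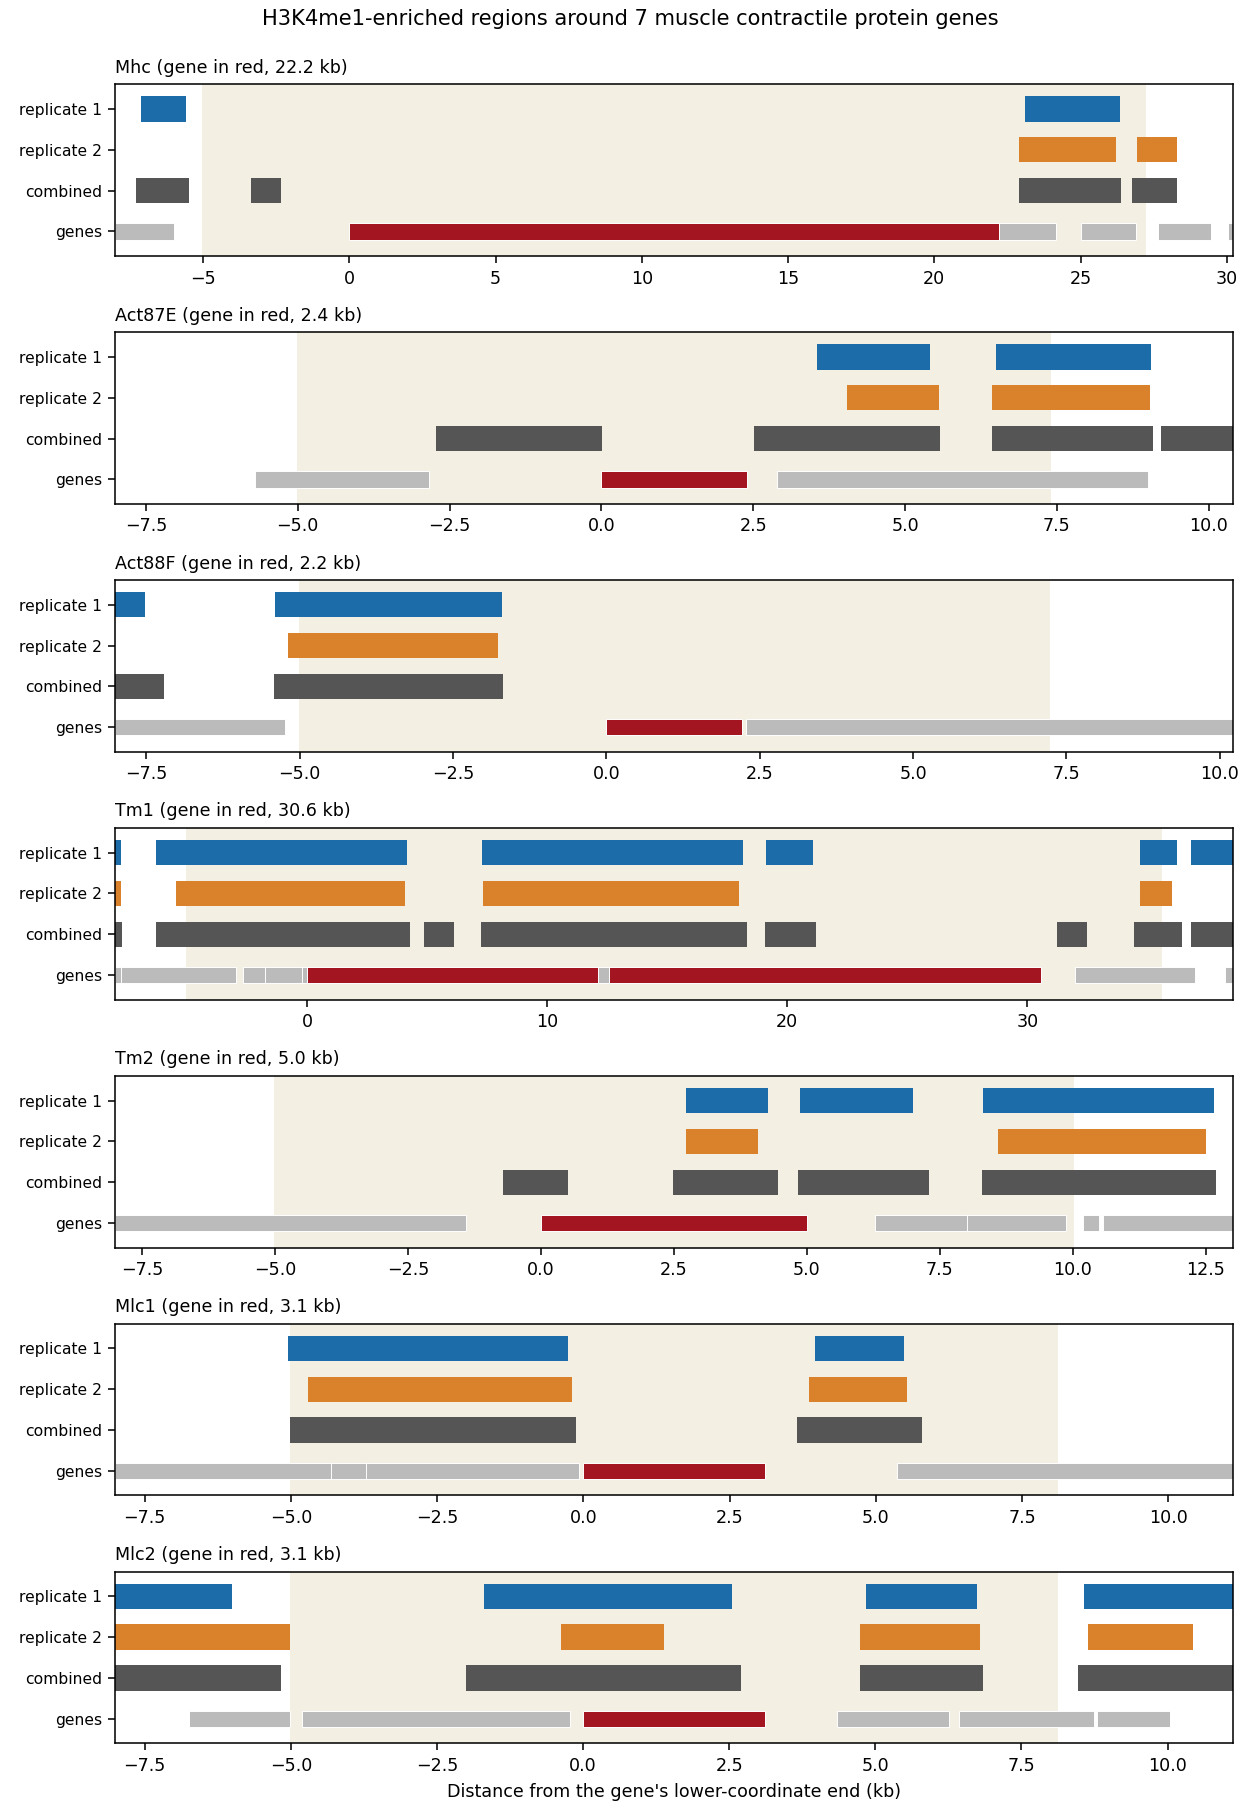
Enriched regions of replicate 1 (blue), replicate 2 (orange) and the combined list (dark grey) around each gene, by distance in kb from the end of the gene with the lower coordinate. Red bars are the named gene, light grey bars other protein-coding genes, and the shaded band is the gene plus 5 kb on each side. The spans of Mhc, Act88F and Mlc1 hold no region in any of the 3 lists, whereas that of Tm1 meets 2 wide regions in each replicate.

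The covered share of a window is the percentage of its bases that lay in regions. The median over the 7 genes was 31.2% ± 6.54 (SD over the replicate lists, n = 2), and over all genes it was 37.6% ± 2.06. The median of the 7 genes was 35.8% against 39.1% for all genes in replicate 1, and 26.5% against 36.2% in replicate 2. It was the value of Tm2 in replicate 1 and of Act88F in replicate 2, so its SD is not the replicate spread of a gene. The median of the replicate means was 27.1% for the 7 genes and 37.5% for all genes. The SD between the lists does not measure the spread among genes, and the difference was not tested. For the gene spans alone the median was 0% for the 7 genes in both replicates, against 30.4% in replicate 1 and 23.1% in replicate 2 for all genes. For the flanks alone the median was 34.2% ± 2.54, against 38.6% ± 1.97 for all genes. In the combined list the medians of the 7 genes were 51.9% for the windows, 0.501% for the spans and 49.4% for the flanks. For all genes they were 44.1%, 38.9% and 44.9%, so the windows and flanks of the 7 lay higher in that list. The gene table used to place genes gives no strand, so the ends of a gene are named by coordinate, not as start and end of transcription. The lower-coordinate end lay in a region of both replicates for 2 of the 7 genes, Tm1 and Mlc2, against 39.6% of all genes. In the combined list this held for 4 of the 7, with Act87E and Tm2 added, against 46.5% of all genes. The higher-coordinate end lay in a region of both replicates for 0 of the 7, against 40.0% of all genes. In the combined list and in replicate 1 that of Tm2 did, which is 1 of the 7, against 46.8% of all genes in the combined list.

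In order of the covered share, the windows ran from Mhc (10.6% ± 0.720) through Act87E (21.2% ± 1.61), Act88F (26.8% ± 0.371), Tm2 (27.1% ± 12.3), Mlc2 (38.0% ± 12.6) and Mlc1 (47.5% ± 0.421) to Tm1 (53.6% ± 3.88; SD, n = 2 throughout). The replicate values of Act88F and Tm2 overlapped, as did those of Tm2 and Mlc2, and these neighbours in the order did not differ beyond their spread. Both replicate values of Act87E also lay within the range of Tm2, 18.4% to 35.8%. In the combined list the order changed, and Act87E, at 54.6%, came below Tm1 (64.3%) only. The replicate values of Mhc lay below those of the other 6 genes, and the replicate values of Tm1 lay above. With 2 lists no test of these differences was made.

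**Figure D2:**
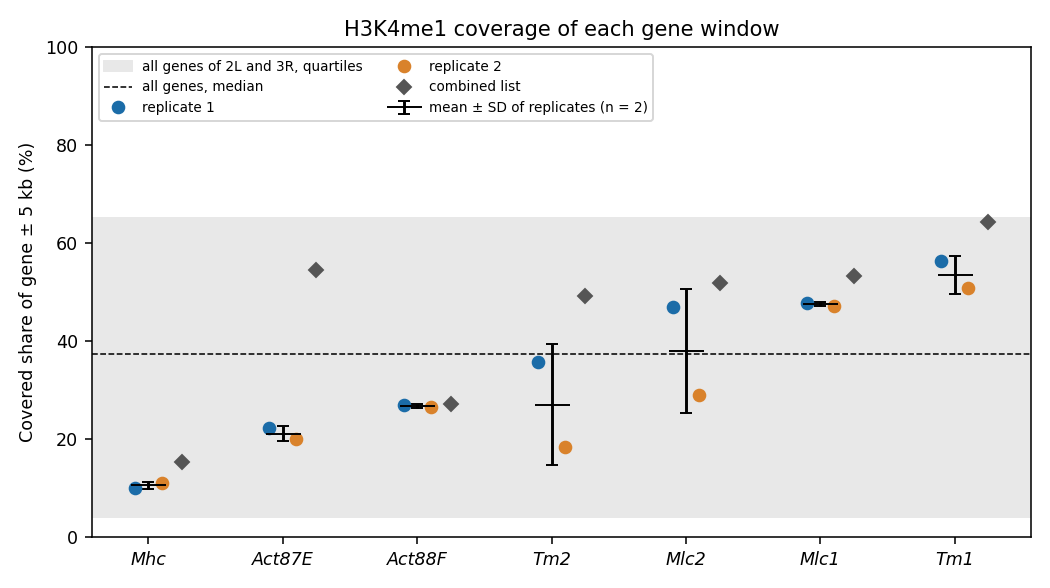
Percentage of each gene window (gene plus 5 kb on each side) covered by regions, for replicate 1, replicate 2 and the combined list, with the mean and SD of the replicates (n = 2). The grey band and dashed line are the quartiles and the median of all genes of 2L and 3R. Mhc is lowest at 10.6% and Tm1 highest at 53.6%, and the replicates lie far apart for Tm2 and Mlc2.

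Mhc, which encodes every muscle myosin heavy chain of the fly through alternative splicing of a single gene, spans 22.2 kb of 2L, from 16766566 to 16788766. None of these bases lay in a region of replicate 1, replicate 2 or the combined list. Of the 430 genes of 2L and 3R that measure at least 20 kb, 93 (21.6%) had no region base in their span in either replicate, a size class chosen after the value of Mhc was seen. The stretch without regions that contains Mhc measured 28.7 kb in replicate 1, 43.7 kb in replicate 2 and 25.2 kb in the combined list. It was longer than 91.0%, 93.6% and 91.2% of the stretches between neighbouring regions on the 2 arms in those lists. A stretch that holds an empty span of 22.2 kb is at least that long, so a high rank followed from the empty span. In replicates 1 and 2 the stretch around Act87E was longer than 87.6% and 87.7%, and that around Act88F longer than 85.8% and 91.2%.

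The regions nearest to Mhc lay beyond its higher-coordinate end. In replicate 1 a region of 3242 bp with a score of 0.65 began 916 bp past the gene, and in replicate 2 its counterpart of 3314 bp with a score of 0.66 began 692 bp past it. These regions overlapped Cyt-b5-r, a cytochrome b5-related gene that adjoins Mhc, and the gene CG17928. The score is the authors' value for a region. It is on a log2 scale with a constant of its own in each list, so it ranks regions within a list and is not an amount of H3K4me1. The Mhc-side regions scored higher than 35.1% of the regions of replicate 1 and 31.3% of those of replicate 2. In replicate 2 a further region of 1344 bp lay over Ugt37C2, partly inside the window. The combined list added a region of 1001 bp, the narrowest of all its regions, that ended 2354 bp below the gene and overlapped no region of either replicate.

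The actin genes are short, and their spans were likewise without regions in both replicates. Act87E encodes an actin of larval and adult muscles and spans 2393 bp of 3R, from 9251705 to 9254097. Its window held 2 regions in each replicate, all over the neighbouring gene yrt, which encodes Yurt, a FERM-domain protein of epithelial polarity. The nearer of these began 1150 bp past Act87E in replicate 1 and 1654 bp past it in replicate 2, with scores of 0.51 and 0.49. The farther one had scores of 0.98 and 0.91, above 66.9% and 59.1% of the regions of the respective list. On the lower-coordinate side the replicates had no region for 18826 bp and 19119 bp. The combined list differed here. This list had a region of 2734 bp with a score of 0.33 that ended 12 bp inside Act87E. The region overlapped the non-coding RNA gene lncRNA:CR45591 and met no region of either replicate. On the higher-coordinate side the combined list covered 4034 bp of the flank, against 2766 bp in replicate 1 and 2483 bp in replicate 2. Its nearer region over yrt was also wider, with 3074 bp, and began 115 bp past Act87E. The covered share of the window was 54.6% in the combined list, against 22.3% in replicate 1 and 20.0% in replicate 2.

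Act88F encodes the actin of the indirect flight muscles, which form only during metamorphosis. It spans 2209 bp of 3R, from 11265691 to 11267899. A single region, with a width of 3710 bp in replicate 1 and of 3430 bp in replicate 2, lay on its lower-coordinate side and ended 1696 bp and 1760 bp from the gene. Its scores were 0.89 and 0.75, above 58.7% and 42.1% of the regions of each list. All of the covered bases inside the window, 3305 bp and 3241 bp, lay between annotated genes. Act88F was the only one of the 7 of which this held in all 3 lists. Past the edge of the window, the region overlapped the gene CG6118 in replicate 1 and in the combined list, but not in replicate 2. On the other side, where the span of AdamTS-A lies 69 bp away, no region was found for 15400 bp in replicate 1 and 27737 bp in replicate 2.

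The tropomyosin genes Tm1 and Tm2 are neighbours on 3R, and a region inside Tm2 falls into both windows. Tm1 makes muscle and cytoskeletal tropomyosins from alternative promoters and exons, and it measures 30.6 kb, from 11103942 to 11134501. The regions of the set with the highest scores lay inside it or across its lower-coordinate end. A region wholly inside the gene lay at 11111227 to 11122105 in replicate 1 (10879 bp, score 1.45) and at 11111245 to 11121921 in replicate 2 (10677 bp, score 1.38). It ranked 364 of 7601 and 468 of 7401 by score, above 95.2% and 93.7% of the regions. The small gene CG45218, which the table places inside Tm1, lies under this region too. Another region, 10422 bp wide in replicate 1 and 9561 bp wide in replicate 2, ran across the lower-coordinate end of Tm1, with scores of 1.05 and 1.11. It also covered l(3)neo43, which overlaps this end of Tm1, and MRG15, a chromodomain protein gene. It reached the insulator protein gene Cp190. Regions covered 55.5% of the Tm1 span in replicate 1 and 48.3% in replicate 2. A region of 1964 bp and score 0.41 further inside the gene was listed in replicate 1 and had no partner in replicate 2.

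Tm2, which encodes a muscle tropomyosin, spans 5005 bp from 11135915 to 11140919. The region inside it measured 1538 bp in replicate 1 and 1352 bp in replicate 2, with scores of 0.62 and 0.58. It was among the narrow ones, wider than 6.35% and 2.09% of all regions. Replicate 1 had a second region of 2129 bp at the higher-coordinate end, with 140 bp inside Tm2, that replicate 2 lacked. The covered share of the window was 35.8% in replicate 1 and 18.4% in replicate 2. A further region, 4349 bp and 3898 bp wide, lay over CG6276, CG44040 and ear, and ear encodes a YEATS-domain protein of transcription elongation.

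The light chain genes showed opposite arrangements. Mlc1, the essential light chain, spans 3100 bp of 3R from 23482800 to 23485899 and had no region base in its span in any of the 3 lists. It lay between regions on both sides, in a gap that measured 4212 bp in replicate 1 and 4051 bp in replicate 2. On the lower-coordinate side a region of 4785 bp (score 1.01) in replicate 1 and 4517 bp (score 0.89) in replicate 2 ended 261 bp and 190 bp from the gene. This region covered the adjoining part of tau, the microtubule-associated protein gene, and RpS10a, a ribosomal protein gene. On the other side a narrower region of 1528 bp and 1673 bp began 853 bp and 763 bp past Mlc1 and reached unc80, which encodes a subunit of a sodium leak channel complex. Regions covered 62.7% and 61.9% of the flanks of Mlc1 and 0% of the gene.

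Mlc2, the regulatory light chain, spans 3114 bp of 3R from 25997160 to 26000273, and a region lay across its lower-coordinate end. In all 3 lists this region also overlapped Rsod, the neighbouring gene 231 bp below Mlc2. In replicate 1 this region measured 4256 bp, and 2555 bp of it were inside the gene. In replicate 2 it measured 1767 bp, and 1390 bp were inside. The covered share of the gene was therefore 82.0% in replicate 1 and 44.6% in replicate 2, the widest gap between replicates in the set. The scores were low, 0.48 and 0.45, above 13.7% and 4.27% of the regions of each list. A second region, of 1899 bp and 2047 bp, lay past the gene over CG1983 and CG15530.

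**Figure D3:**
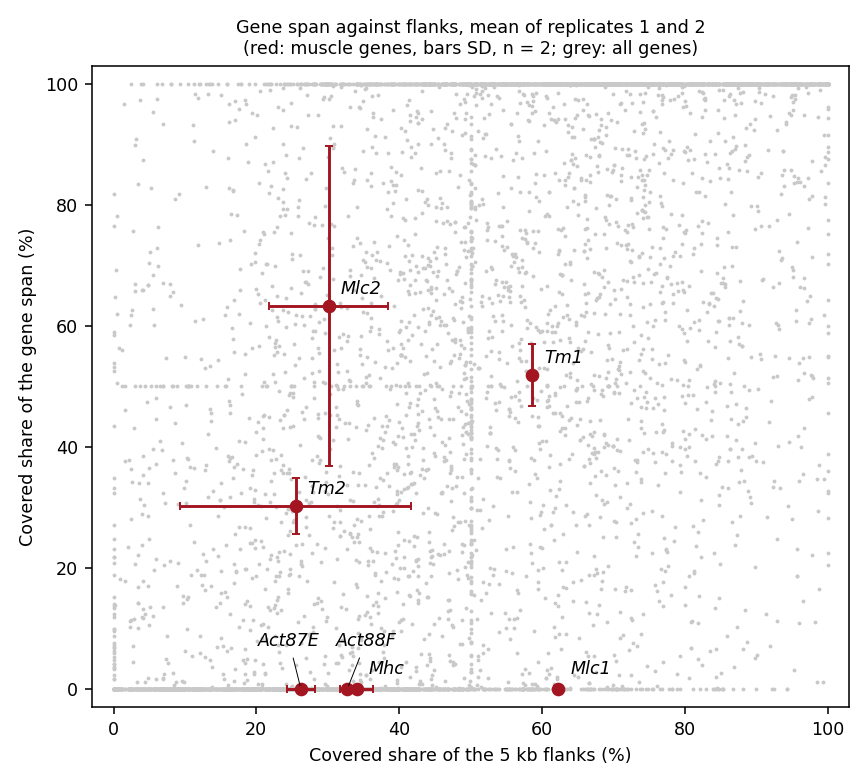
Covered share of the gene span (vertical) against that of the 5 kb flanks (horizontal), as means of replicates 1 and 2, for all genes of 2L and 3R (grey) and the 7 muscle genes (red, bars are SD, n = 2). Mhc, Act87E, Act88F and Mlc1 lie on the zero line of the span with 26.2% to 62.3% of their flanks covered.

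Most regions in these windows scored below the middle of their lists, and the 2 wide regions of Tm1 scored above it. The median score was 0.64 in replicate 1, where the median of all regions was 0.79, and 0.66 in replicate 2, where it was 0.82. In replicate 1, 9 of the 14 regions scored below the median of the list, and in replicate 2 this held for 9 of the 13. Widths ran from 1528 to 10879 bp in replicate 1 and from 1344 to 10677 bp in replicate 2. Of these regions, 6 of the 14 and 4 of the 13 reached into one of the 7 genes, and the rest lay in the flanks.

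**Figure D4:**
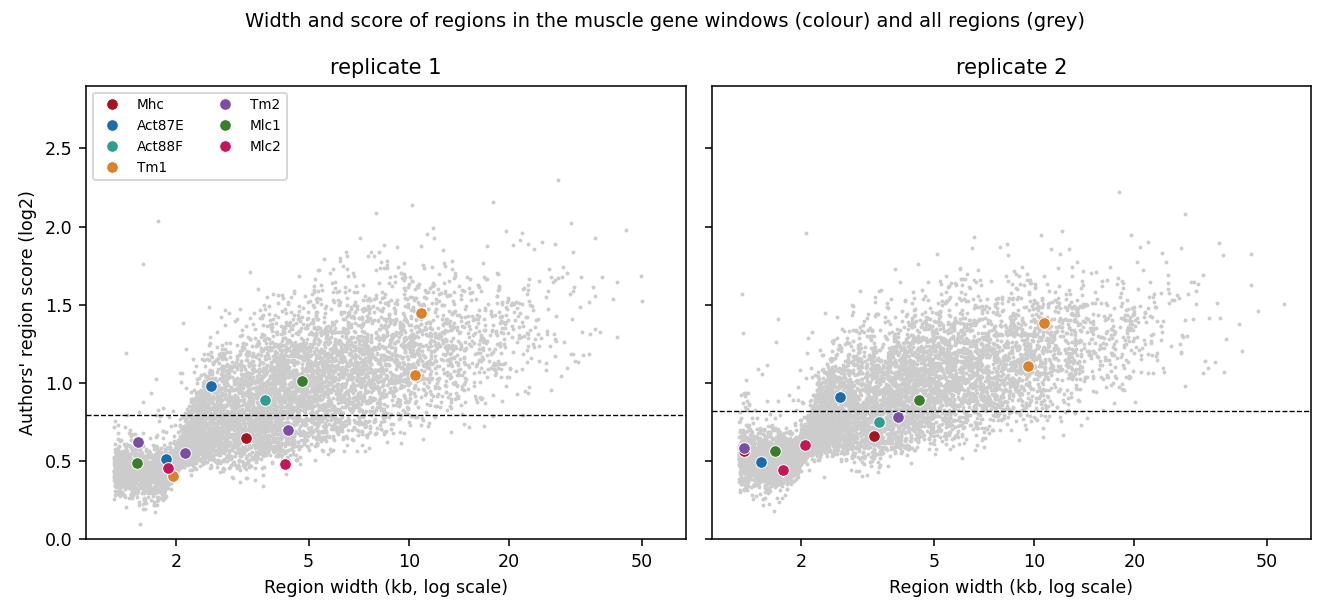
Authors' region score (log2) against region width (kb, log scale) in replicate 1 and replicate 2, for all regions (grey) and those in the 7 windows (coloured by gene, with the region shared by Tm1 and Tm2 drawn under Tm2). The dashed line is the median score of the list, 0.79 and 0.82. The 2 wide regions of Tm1 stand at the upper right, and most of the others lie below the line.

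Regions of both replicates were paired where they overlapped. Counts of pairs over all regions of the lists are not given here, so those below are not read as a trait of these windows. Of the 14 regions of replicate 1, 12 had a partner in replicate 2, and 18 of the 24 edges of these pairs differed by at most 250 bp, with a median of 152 bp. The largest shift, 1324 bp, was at Mlc2. The regions without a partner were at Tm1 and Tm2 in replicate 1 and beside Mhc in replicate 2. Partners were sought only among regions that touched a window, and the region beside Mhc extends past its window. A partner in replicate 1 that lay wholly past that edge would have been missed.

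The profile of coverage around the lower-coordinate end of each gene was compared with that of the other genes of both arms, over 40 values (bins of 500 bp from 5 kb below to 5 kb above, in both replicates). The profile of Mhc was empty and was identical to that of 2053 genes, so it had no single closest match. The closest profile to Act88F was that of Sfp84E, a seminal fluid protein gene, with a mean absolute difference of 0.28 percentage points, and the closest to Tm1 was that of CG5188 with 0.285. The closest to Act87E was CG5892 with 0.795. Mlc1, Tm2 and Mlc2 had more distant best matches, CG14313 with 2.80, CG43179 with 3.80 and CG31952 with 9.38 percentage points. Genes with a difference within 1 percentage point of the smallest numbered 14 for Act88F, 13 for Act87E and 8 for Tm1, the named gene included. The named genes were therefore not distinctive matches for these. The numbers were 5 for Tm2, 3 for Mlc2 and 1 for Mlc1.

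A list of 17 other genes of muscle structure and attachment on 2L and 3R gives context. Regions were present in the window in both replicates for 15 of the 17, against 73.1% of all genes. By the mean of the replicates, the window share lay above the median of all genes (37.5%) for 10 of the 17 and for 3 of the 7 contractile protein genes. Of these, Mlc2 had 29.1% in replicate 2, where the median of all genes was 36.2%. In the combined list Act87E (54.6%) and Tm2 (49.2%) also lay above the median of all genes, 44.1%, while Mhc and Act88F did not. The count for the 7 therefore depended on the list. The median window share of the 17 was 43.7% ± 2.30 (SD, n = 2). Their spans were without any region base in both replicates for 2 of 17, against 40.2% of all genes. The list includes longer genes, such as Dys (dystrophin) with 136 kb and Msp300, a giant protein of the nuclear envelope and Z-disc, with 106 kb, and long spans meet regions more often. No test of the difference between the lists was made.

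The 2 genes with an empty span were Mf and TpnC25D. Mf encodes myofilin, a protein of the thick filament, and the window of this 10.9 kb gene had no region in any of the 3 lists. TpnC25D encodes a troponin C, and its window was covered to 8.11% in replicate 1 and to 0% in replicate 2. The highest span shares of the 17 were those of by, cpb and stck. The span of by, which encodes tensin, was covered to 100% in both replicates. The span of cpb, the beta subunit of capping protein, was covered to 92.2% ± 0.926, and that of stck, which encodes the adhesion adaptor PINCH, to 84.5% ± 2.60. All 3 are short, at 4.77, 2.06 and 2.99 kb, as is TpnC25D, at 2.35 kb, with 0% of its span covered. A link between the span share and gene size or expression was not tested. Other genes of attachment lay lower, with 51.9% ± 6.65 of the span of Pax (paxillin), 49.6% ± 0.314 of that of kon, a transmembrane protein of muscle attachment, and 7.28% ± 0.452 of that of tig, an integrin ligand. Thin-filament regulators had 30.4% ± 0.00153 of the span of tmod (tropomodulin, which caps actin filaments) covered and 19.9% ± 0.581 of the span of sals, which is needed for thin filaments to reach their length. The myosin chaperone gene unc-45 had 43.3% ± 0.207 of its span covered, while the span of Mhc had 0%.

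**Figure D5:**
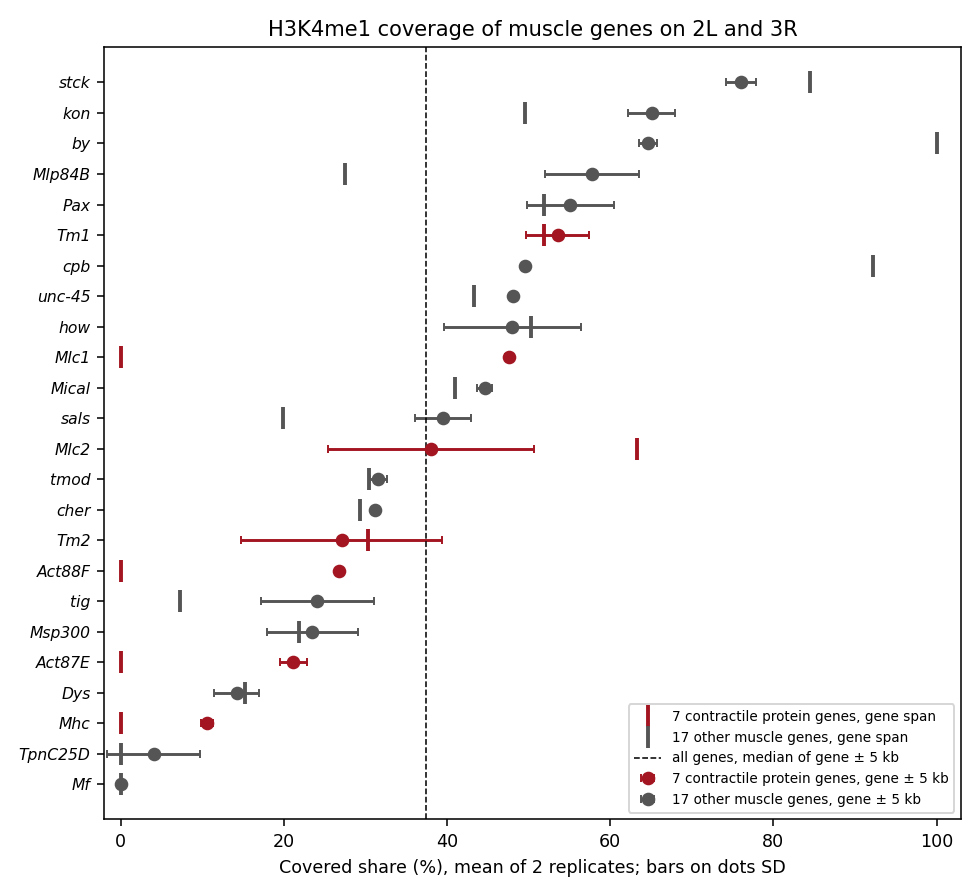
Covered share of the gene window (dots, mean and SD of replicates 1 and 2) and of the gene span (vertical ticks, mean) for the 7 contractile protein genes (red) and 17 other muscle genes (grey), ordered by window share. The dashed line is the median window share of all genes of 2L and 3R, 37.5%. Of the 24 genes, 6 have an empty span: Mhc, Act87E, Act88F, Mlc1, Mf and TpnC25D.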

How the data were processed

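Regions of significant enrichment were deposited by the authors as 1 list for each ChIP library and 1 combined list, on FlyBase release 5 per the file headers. Bowtie 0.12.7 was used per the submitters' processing notes. The sources used here do not name the region caller, its threshold or the use of the input, and input values were not analysed here. Both replicate lists carry the experiment number of the same library, so which list is replicate 1 rests on the repository's record. The deposited score has no stated scale, and the log2 scale was settled from the values: among the 300 shortest regions of each list, 300 scores differed by the log2 of a ratio of whole numbers (denominators up to 20000, relative tolerance 2e-13), against at most 3 in base e or base 10.

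Genes came from a RefSeq table on release 6, without strand. Positions on 2L were taken as equal in both releases, and 4174278 was subtracted on 3R. On 3R, 36 of 36 older positions held among gene synonyms touched their gene under this offset. On 2L, 8 of 15 did, 1 of the 2 given for Mhc lay 1002 bp outside it, and the other 6 misses, for genes that start at 19810734 or beyond, were 3807 to 12368 bp. The release of these positions is not stated. A synonym was used to find tig. Overlaps of at least 1 bp counted, and spread is the SD of both replicate lists (n = 2). The overlap step was tested on simulated data. Python 3.11.15, pandas 2.3.3 and numpy 2.4.6 were used.

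The 7 genes and all lists were chosen with earlier results of these data known. The named genes are these 7, the 17 other muscle genes, neighbours whose lower-coordinate end lies in a combined region of a window, and 1 closest profile for each gene among genes over 50 kb away. Other neighbours under a region were named after their values were seen. Alternatives concerned the flank, the overlap, the score threshold, each replicate alone and the combined list.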

Additional observations from a re-analysis of the deposited data

How the results depend on the processing

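No paired analysis was possible because no region list of the input libraries was used and the ChIP libraries form a single group. All 7 genes kept a region in both replicates with flanks of 2 kb or 10 kb, with an overlap of 500 bp, in either replicate alone and in the combined list. The count was 3 without flanks and 3 among the 50% of regions with the highest score. The lower-coordinate end lay in a region for 2 genes in either replicate alone, for 3 within 500 bp, for 1 among the top 50% by score and for 4 in the combined list, while the higher-coordinate end gave 0 for both replicates together and 1 (Tm2) in replicate 1 and in the combined list. The median covered share was 26.5% to 35.8% in either replicate alone, 0% without flanks and 3.61% in the top 50% by score. It was 51.9% in the combined list, against 44.1% for all genes, and 26.8% without Tm1 and Tm2. The 4 genes without a region base in the span were 4 in either replicate alone, 6 in the top 50% by score and 3 in the combined list. Shares of all genes are not given here for the other flanks, the 500 bp settings or the top 50% by score. The counts at those settings are therefore not read as a trait of the 7 genes. Of 30 window shares of single genes under other flanks, scores or placements, 23 moved by at least the replicate SD. Without the 469 genes of 2L from 19810734 on, 74.5% of all genes had a region in the window in both replicates and 38.8% had an empty span. When the Mhc span was moved by 2000 bp to lower coordinates it still held 0 bp of regions in each list, and by 2000 bp to higher coordinates it held 1085 bp in replicate 1 and 1309 bp in replicate 2. The use of the higher-coordinate end, of the combined list for counts, the omission of Tm1 and Tm2 or of the 469 genes and the moved span were chosen after seeing the data. Read depth is not known, so an empty span means that no region was listed, not that H3K4me1 is absent.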

Other observations

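Of the 19 combined regions in these windows, 4 overlapped no region of either replicate, or 21.1%, against 14.2% of the whole combined list. One lay below Mhc, one at the lower-coordinate end of Act87E, one inside Tm1 and one across the lower-coordinate end of Tm2. They measured 1001, 2734, 1274 and 1227 bp, with scores of 0.42, 0.33, 0.28 and 0.33. The regions at Act87E and Tm2 account for the rise from 2 to 4 in the genes whose lower-coordinate end lies in a region when the combined list is used.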
